A study of Mus musculus with 6 samples.

Results

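The cells described here are the small intestinal epithelial cells of the mouse in which RNA of both Atoh1 and Dll1 was detected. They were selected on measured UMI counts, as barcodes with at least 500 genes, at most 25% mitochondrial UMIs, at least 1 UMI each of Atoh1 and Dll1 and no UMI of Neurog3, leaving out barcodes with 10% or more of their UMIs from Defa genes plus Lyz1. The rule found 2785 cells among 26045 kept barcodes (26153 before the limits on genes and mitochondrial UMIs). The study made 6 single-cell libraries of epithelial cells from the small intestine of C57BL/6J mice aged 8 weeks, and its title asks whether T cells carrying integrin αEβ7 steer the fate of intestinal stem cells. Of these, 3 libraries are labelled Itgb7 KO and 3 wild-type (WT). Itgb7 encodes the integrin β7 chain, which pairs with αE to bind E-cadherin on epithelial cells. The labels do not say whether a library holds cells of 1 mouse or several, so p-values between genotypes measure the spread between libraries only. The Atoh1+Dll1+ cells numbered 498, 428 and 329 in the Itgb7 KO libraries, against 481, 533 and 516 in the WT libraries.

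Crypt cells that escape Notch signalling switch on Atoh1, a basic helix-loop-helix factor that directs them to the secretory lineages, and then display Delta-like ligands such as Dll1 that activate Notch in their neighbours. Cells that have just made this choice are held to be precursors of goblet, Paneth and enteroendocrine cells. Spdef and Creb3l1 act later: Spdef drives goblet and Paneth cell maturation, and Creb3l1 encodes a membrane-bound factor that is released from the endoplasmic reticulum (ER) in secretory cells.

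Atoh1 (ENSMUSG00000073043) lies at chr6:64729125-64731245 on the plus strand of mm10 and gave 9008 UMIs in the selected cells. Dll1 (ENSMUSG00000014773) lies at chr17:15367354-15376872 on the minus strand and gave 5866. Their levels chose the cells and are given without a test. Atoh1 stood at 162, 293 and 379 CPM (UMI counts scaled to a total of 1e+06 per library) in the Itgb7 KO libraries, against 151, 246 and 221 in the WT libraries. Dll1 stood at 99.6, 193 and 293 CPM in the Itgb7 KO libraries, against 93.6, 164 and 141 in the WT libraries. Both were lowest in replicate 1 of each genotype, the pair with the highest median UMIs per selected cell. Those medians were 19302, 9724 and 6237 in the Itgb7 KO libraries, against 21249, 12033 and 12219.5 in the WT libraries. Under a rule that asks for 1 UMI, that UMI is a larger part of a shallow cell, but its part in the pattern was not tested. Detection was also taken in barcodes with at least 2% of UMIs from the 7 goblet genes described below, thinned to 5000 UMIs. There, Dll1 was found in 30.8, 44.7 and 54.2% in Itgb7 KO, against 29.2, 44.0 and 34.7% in WT. Atoh1 was found in 50.8, 61.9 and 66.5%, against 48.2, 54.8 and 53.4%, so replicate 1 was lowest there too.

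Many cells stood near the edge of the rule. Exactly 1 Atoh1 UMI was seen in 787 cells (28.3%), exactly 1 Dll1 UMI in 1256 (45.1%) and 1 of each in 403 (14.5%), while 1145 cells (41.1%) had at least 2 of each. Just outside stood 2091 barcodes with Atoh1 but no Dll1, in which the goblet products described next made up a median of 6.64% of UMIs, and 2362 with Dll1 but no Atoh1, in which they made up 0.287%. The Neurog3 condition took 122 barcodes and the Paneth condition 83. At that last limit, 16 selected cells had 8 to 10% of UMIs from Defa genes plus Lyz1, and 10 barcodes left out had 10 to 12%. In enterocytes, both Atoh1 and Dll1 were found in 16 of 2242 cells, or 0.714% (95% exact interval 0.408 to 1.16%, counting error only). There, 104 cells held an Atoh1 UMI (a mean of 5.65% per library) and 280 a Dll1 UMI (13.5%), at a median depth of 10983.5 UMIs. So 1 UMI of either gene alone also occurs in cells that should lack it.

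The label secretory progenitor was only partly borne out, because most of the selected cells held a large load of goblet cell products. Muc2, Tff3, Agr2, Fcgbp, Zg16, Clca1 and Spink4, which encode the mucin, trefoil peptide, disulfide isomerase and other proteins of goblet cell mucus, together made up a median of 10.8% of each cell's UMIs. The quartiles were 5.67 and 17.6%. Neither Atoh1 nor Dll1 is among these 7 genes. At least 2% was reached by 2501 cells (89.8%), and 284 (10.2%) stayed below. The median over cells was 10.9, 10.5 and 11.7% in the Itgb7 KO libraries, against 11.4, 11.1 and 9.68% in the WT libraries, so every library showed it. It was 14.3% in 1587 goblet cells without a Dll1 UMI, 0.872% in 337 cells with at least 2 Neurog3 UMIs, which mark the start of the enteroendocrine lineage, and 0.224% in 714 cells with at least 2 UMIs of the stem cell receptor Lgr5 and none of Atoh1, Dll1 or Neurog3. These Lgr5 cells were taken without the 2 cells that also met the goblet rule; with them the median over 716 cells was 0.225%. The Dll1-negative goblet cells, the mature goblet cells of the comparison, were required to reach 2% themselves and to carry no Neurog3, but 1210 of them held an Atoh1 UMI. For this reason the cells are called Atoh1+Dll1+ cells below. The other markers of the label were present: Spdef was detected in a mean of 76.8% of cells per library and Creb3l1 in 84.4%, against 5.97% and 12.3% of enterocytes, at median depths of 13571 and 10983.5 UMIs. With every cell thinned to 5000 UMIs, those shares were 52.7% and 63.8%, against 1.94% and 4.60%.

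**Figure D1:**
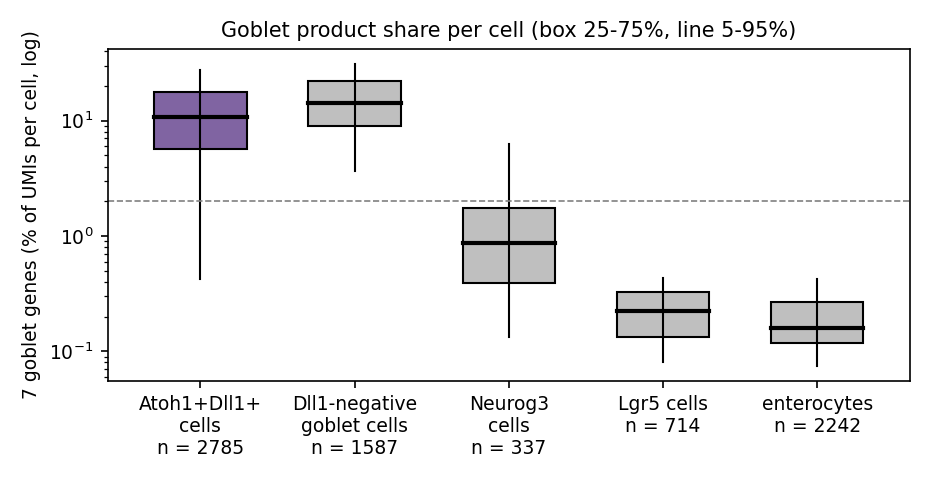
Share of each cell's UMIs from the 7 goblet genes (percent, log axis) in 5 cell classes. The box spans the 25th to 75th percentile, the thin line the 5th to 95th, and the dashed line marks 2%; the Atoh1+Dll1+ cells, with a median of 10.8%, stand beside the Dll1-negative goblet cells at 14.3% and above the Neurog3 cells at 0.872%, while the class of enterocytes was limited to under 0.5% by its own rule.

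Of other cell types, lymphocytes, myeloid, stromal and tuft cells left little RNA in the Atoh1+Dll1+ cells, while genes of other epithelial types left more. T cell genes gave 3 UMIs from 2 of 9 genes in the Itgb7 KO libraries (summed level 0.0924 to 0.456 CPM), against 20 UMIs from 5 of 9 in the WT libraries (0 to 1.27 CPM), and Ptprc, which marks all leukocytes, was at 0 in both. Myeloid genes stood at 3.67 to 5.47 CPM in Itgb7 KO and 3.74 to 6.26 in WT, with Tyrobp at 0. Stromal genes gave 33 UMIs in Itgb7 KO and 45 in WT, with the collagens Col1a1, Col1a2 and Col3a1 at 0. Tuft cell genes stood at 4.29 to 6.38 CPM in Itgb7 KO and 6.04 to 12.5 in WT. Enterocyte genes summed to 1600 to 2139 CPM in Itgb7 KO and 1440 to 2256 in WT. Genes of the Paneth list, among them Lyz1, Guca2b and Nupr1, summed to 2341 to 4110 CPM in Itgb7 KO and 2686 to 4060 in WT. That list shares Itln1 and Ang4 with the list of goblet products used below. Its genes took 0.320% of UMIs in Atoh1+Dll1+ cells and 0.415% in goblet cells without Dll1. The sum therefore does not tell Paneth cell RNA from goblet cell RNA. Enteroendocrine genes, with Neurog3 at 0 by the rule, summed to 415 to 737 CPM in Itgb7 KO and 414 to 714 in WT. Lgr5 was detected in 178 cells, the tuft cell kinase gene Dclk1 in 20 and the enteroendocrine granule gene Chga in 243. The last share, a mean of 8.52% per library, was below the mean of 14.5% of enterocytes that held a Chga UMI. Among the cells, 3 barcode sequences occurred in more than 1 library, of 405 among all kept barcodes.

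The goblet load ordered the Atoh1+Dll1+ cells along a graded series of gene levels. They were divided at 2, 8 and 16% of UMIs from the 7 genes, which put 284, 713, 944 and 844 cells in the bins, and levels were recomputed as CPM of the UMIs outside those genes. The median depth of the bins was 16702, 16281, 12248.5 and 12412.5 UMIs. The values below are means ± SD over 6 libraries and are a description, since the bins were cut from the same cells. Sox4, a transcription factor of early secretory and enteroendocrine commitment, stood at 451 ± 143 CPM below 2%, then at 104 ± 35.9, 35.7 ± 13.5 and 25.3 ± 6.00. The stem cell factor Ascl2 stood at 54.7, 10.98, 3.28 and 2.56 CPM, and Lgr5 itself at 22.4, 6.13, 3.14 and 2.73. The receptor gene Notch1 stood at 18.2 CPM below 2% and at 7.67, 2.67 and 2.56 above. The 284 cells with the least goblet RNA thus had the highest levels of these 2 stem cell genes and of a receptor for the signal that Dll1 sends. Olfm4, another stem cell gene, was nearly level, at 50.2, 48.3, 43.2 and 48.1 CPM. The 20 stem cell and Wnt target genes summed to 1203, 744, 544 and 482 CPM. Cd74, the invariant chain of MHC class II, followed the same order at 479, 282, 136 and 70.5 CPM. Markers of other cell types were also high in the cells under 2%. Enteroendocrine genes summed to 848 ± 1015 CPM there, with 93.2 to 2520 over libraries, against 488, 638 and 684 in the higher bins. Tuft cell genes summed to 22.1 ± 19.9 CPM there, against 7.81, 5.18 and 5.90. The part of such RNA in the stem cell gene, Sox4 and Notch1 values was not tested.

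Cell cycle genes were at like levels in the first 2 bins and lower in the last 2. The 29 genes of the G2/M list summed to 3330 ± 74 CPM below 2%, 2864 ± 377 at 2 to 8%, 1259 ± 546 at 8 to 16% and 370 ± 86 at 16% or more. The 30 S-phase genes summed to 1651, 1583, 815 and 430 CPM. Mki67, the proliferation marker, stood at 84.8, 81.4, 41.0 and 12.1 CPM. Cells with 2 to 8% goblet RNA therefore held both mucus gene RNA and nearly as much cell cycle RNA as the cells with less. The inhibitor Cdkn1a ran the other way at 92.7, 146, 302 and 484 CPM, as did Klf4, a factor of goblet cell differentiation, at 82.4, 276, 388 and 513.

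The secretory apparatus was spread over the same bins. Xbp1, the transcription factor of the unfolded protein response, stood at 141, 308, 388 and 448 CPM, and Hspa5, the ER chaperone BiP, at 393, 850, 1181 and 1339. The 29 genes of ER folding summed to 5023, 11292, 15146 and 16246 CPM, and the 22 of O-glycosylation, which build the sugar chains of mucins, to 703, 1704, 2307 and 2720. Spdef stood at 35.0, 191, 238 and 215 CPM and Creb3l1 at 63.6, 284, 322 and 253, so both were at their lowest below 2% and no longer higher in the last bin than in the third. Creb3l4, a relative of Creb3l1, stood at 8.24, 81.8, 135 and 163. Other fate genes varied less over the bins: Dll4, the other Delta-like Notch ligand of the crypt, stood at 23.8, 26.8, 30.8 and 29.9 CPM, Hes6 at 210, 192, 164 and 143, and Hes1, the main Notch target, at 154, 118, 144 and 184. Enterocyte genes summed to 2654 ± 1046, 1465, 2014 and 2557 CPM, highest in the cells under 2%. Of these, Fabp1 stood at 571, 181, 173 and 102 CPM and Alpi at 69.9, 26.8, 21.7 and 22.0, whereas Fabp2 ran the other way, at 670, 881, 1410 and 2158. Their part in the other values was not tested.

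**Figure D2:**
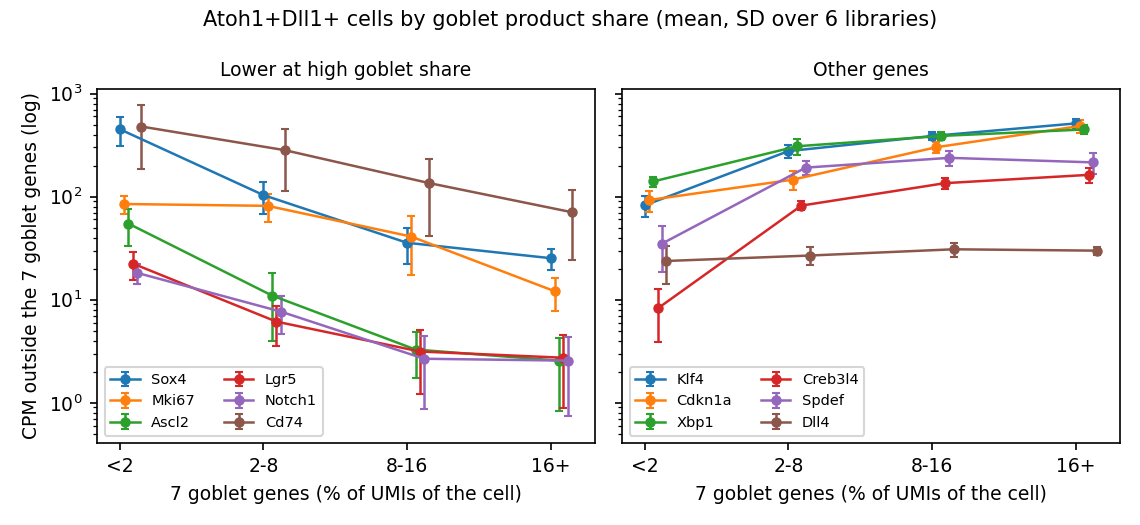
Mean level of 12 genes in Atoh1+Dll1+ cells (CPM outside the 7 goblet genes, log axis) by the share of UMIs from those genes; points are means and bars SD over 6 libraries. Sox4, Mki67, Ascl2, Lgr5, Notch1 and Cd74 are on the left and decline from the first bin to the last, while on the right Klf4 and Cdkn1a climb and Dll4 stays between 23.8 and 30.8 CPM.

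Set against Dll1-negative goblet cells of the same library, the Atoh1+Dll1+ cells had more RNA of mitosis genes and of Sox4. They had less RNA of several goblet products and stress genes. In cells of at least 2% goblet RNA, 23 of 29 G2/M genes were still higher, but Sox4 was not called and 2 of 13 goblet products were lower. Sums per library and class went into 1 edgeR quasi-likelihood fit, with library as a block and Benjamini-Hochberg adjustment. It called 1226 of 10014 genes (12.2%), of which 569 were higher (5.68%) and 657 lower (6.56%). Levels below are CPM of all UMIs, whereas log2 fold changes use TMM scaling, under which a large mucus share in 1 class does not lower its other genes. When the 284 cells under the 2% that the goblet cells had to reach were left out, 183 genes were higher and 95 lower of 9886, or 2.81%. With goblet cells also limited to those without Atoh1, 628 of 7542 were called (8.33%). Without Itgb7 KO replicate 2 the count was 700, and without WT replicate 2 it was 806. The median depth was 13571 UMIs in Atoh1+Dll1+ cells and 11242 in goblet cells, and its part in the result was not tested.

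Every one of the 29 tested G2/M genes was higher in Atoh1+Dll1+ cells than in Dll1-negative goblet cells, with a median log2 fold change of 0.78 against -0.02 over all genes, and 23 of the 29 remained called in cells of at least 2% goblet RNA. Ube2c, which loads ubiquitin for the anaphase-promoting complex, stood at 252, 266 and 146 CPM in Atoh1+Dll1+ cells of the Itgb7 KO libraries and 277, 174 and 183 in those of WT. In goblet cells it stood at 150, 109 and 37.6 CPM in Itgb7 KO and 122, 76.4 and 87.3 in WT. It was higher in all 6 libraries, by 1.02 ± 0.15 on the log2 scale (± SE, edgeR adjusted p = 2.84e-05), and by 0.82 in the cells of at least 2%. Cdk1, the kinase that starts mitosis, averaged 68.0 ± 16.7 CPM in Atoh1+Dll1+ cells and 33.4 ± 10.6 in goblet cells (SD, n = 6), a log2 fold change of 0.88 ± 0.10 (edgeR adjusted p = 2.23e-06). Nusap1, a spindle protein gene, was higher by 1.18 ± 0.18 and Mki67 by 0.45 ± 0.09 (edgeR adjusted p = 4.62e-05 and 0.00124). Of the 30 S-phase genes, 14 were higher and none lower, with a median of 0.33, and 4 were called in cells of at least 2%. Of all genes, 5.68% were higher with all cells, and 183 of 9886 genes in cells of at least 2%.

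Summed over both lists, cell cycle genes made up 0.262 ± 0.0304% of the UMIs of Atoh1+Dll1+ cells and 0.158 ± 0.0214% of those of Dll1-negative goblet cells (SD, n = 6). The share was higher in 6 of 6 libraries, by a ratio of 1.66 (exact sign-flip permutation test, two-sided, p = 0.03125, the smallest that 6 libraries allow). In cells of at least 2% it was 0.228 ± 0.0298%, again higher in 6 of 6. Neurog3 cells stood at 0.263%, not distinguishable from Atoh1+Dll1+ cells (exact p = 1), and Lgr5 cells at 0.519%, above them in 6 of 6 libraries (exact p = 0.03125). Genes of the inhibitors of cyclin-dependent kinases summed to 0.0345% in Atoh1+Dll1+ cells, against 0.0388% in goblet cells, 0.101% in Neurog3 cells and 0.0155% in Lgr5 cells.

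The promoters of the G2/M genes share short sequences that are shown here because these genes moved as 1 group. RefSeq promoters of GRCm38.p6, from 250 bases before to 50 after the start, were found for 25 of the 29 genes. The cell cycle homology region TTTGAA, on either strand, occurred in 17 of 25 (68%), against 17.9% of 32851 mouse promoters and 3 of 27 S-phase promoters. CCAAT, the box bound by NF-Y, occurred in 19 of 25 (76%), against 37.4% of all, 17 of 27 S-phase promoters (63.0%) and 17 of 22 promoters of the ER folding genes (77.3%). The Cdk1 promoter lies at chr10:69352863-69353162 on the minus strand and that of Ube2c at chr2:164769679-164769978 on the plus strand. Capitals mark TTTGAA or CCAAT on either strand.
Cdk1: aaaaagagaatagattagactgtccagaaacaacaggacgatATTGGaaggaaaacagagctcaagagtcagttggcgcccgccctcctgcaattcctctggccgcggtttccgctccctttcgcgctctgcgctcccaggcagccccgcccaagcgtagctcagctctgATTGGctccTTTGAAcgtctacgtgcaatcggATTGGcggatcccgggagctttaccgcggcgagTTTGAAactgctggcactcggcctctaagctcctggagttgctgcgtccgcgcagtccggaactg
Ube2c: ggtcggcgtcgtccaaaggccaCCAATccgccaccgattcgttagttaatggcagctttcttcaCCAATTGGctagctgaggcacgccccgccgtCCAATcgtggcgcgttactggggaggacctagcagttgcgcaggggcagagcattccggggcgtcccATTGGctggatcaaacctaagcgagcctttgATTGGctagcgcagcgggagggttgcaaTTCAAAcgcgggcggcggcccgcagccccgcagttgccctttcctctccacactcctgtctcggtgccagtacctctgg
Cdk1 holds TTTGAA at 2 positions and CCAAT at 3, Ube2c TTTGAA at 1 and CCAAT at 6, which overlap in part. A match is a description of the letters and not of binding.

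Among factors of secretory fate, Sox4 differed most between Atoh1+Dll1+ cells and Dll1-negative goblet cells. It stood at 88.4, 138 and 126 CPM in Atoh1+Dll1+ cells of the Itgb7 KO libraries and 73.3, 100.6 and 67.4 in those of WT, while no goblet cell value was above 42.3. The log2 fold change was 1.22 ± 0.16 (edgeR adjusted p = 7.80e-06). It fell to 0.32 in cells of at least 2% goblet RNA (edgeR adjusted p = 0.368), so the Sox4 difference rests on the 284 cells below that share. Of 17 tested secretory factors, 3 were higher and 2 lower, against 5.68% and 6.56% of all genes. Hes6 was higher by 0.20 and Foxa2 by 0.33 (edgeR adjusted p = 0.0270 and 0.0420). Both lost the call in the cells of at least 2% and without WT replicate 1, 2 or 3 in turn; Hes6 lost it also without Itgb7 KO replicate 1, and Foxa2 without replicate 2 or 3. Creb3l4 was lower by 0.30 and Id3 by 0.32, and neither was called in cells of at least 2%, nor Id3 without Itgb7 KO replicate 2. Gfi1, a zinc finger repressor that acts below Atoh1, averaged 18.5 CPM in Atoh1+Dll1+ cells and 14.3 in goblet cells (log2 0.23, edgeR adjusted p = 0.154); in the cells of at least 2% it was called, at 0.41 (edgeR adjusted p = 0.0233), and also without WT replicate 1, at 0.34. Spdef averaged 168 and 166 CPM (edgeR adjusted p = 0.506) and Creb3l1 231 and 227 (edgeR adjusted p = 0.628).

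Of the tested Notch pathway genes, 1 was called higher in Atoh1+Dll1+ cells than in Dll1-negative goblet cells and 1 lower. Over all genes, 5.68% were called higher and 6.56% lower. Lfng, a glycosyltransferase that adds sugars to Notch and Delta proteins, stood at 19.9, 25.7 and 25.1 CPM in Atoh1+Dll1+ cells of the Itgb7 KO libraries and at 19.9, 21.3 and 23.3 in those of WT. In goblet cells it stood at 12.3, 13.5 and 6.59 CPM in Itgb7 KO and at 12.5, 12.2 and 15.3 in WT. The classes did not overlap, and the log2 fold change of 0.69 ± 0.11 (edgeR adjusted p = 7.83e-05) was 0.58 in cells of at least 2% (edgeR adjusted p = 0.00290). Neurl3, of the neuralized family of ubiquitin ligases, was lower by 0.22 (edgeR adjusted p = 0.0303), a call that only the fit without WT replicate 1 kept when libraries were left out. The other 15 tested genes of Notch processing, the 2 tested receptors, the 4 tested targets and the 2 tested ligands were not called. Dll4 averaged 25.2 ± 1.5 CPM in Atoh1+Dll1+ cells and 23.3 ± 5.46 in goblet cells, with a log2 fold change of 0.06 ± 0.10 (edgeR adjusted p = 0.789). Hes1 averaged 129 ± 6.94 CPM in Atoh1+Dll1+ cells and 139 ± 13.4 in goblet cells (log2 -0.22, edgeR adjusted p = 0.124). It was called lower when at least 2 UMIs of each gene were asked of the selected cells (-0.37, edgeR adjusted p = 0.0191) and with a goblet limit of 4% (-0.26, edgeR adjusted p = 0.0499).

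Of 13 goblet products outside the 7 that defined the goblet cells, 7 were lower in Atoh1+Dll1+ cells and none higher, with a median of -0.50. In cells of at least 2% goblet RNA 2 of 13 were lower. Of all genes, 6.56% were lower with all cells, and 95 of 9886 genes in cells of at least 2%. The chemokine gene Ccl6 averaged 1940 ± 479 CPM in Atoh1+Dll1+ cells and 2773 ± 588 in goblet cells, a log2 fold change of -0.68 that lost its call without WT replicate 2 or 3 or Itgb7 KO replicate 1 or 2 (edgeR adjusted p up to 0.0721). Reg4, a lectin gene, averaged 182 and 263 CPM, at -0.66. Calcium-binding S100a6 stood at 509, 287 and 322 CPM in Atoh1+Dll1+ cells of Itgb7 KO and 473, 486 and 377 in those of WT. Goblet cells had 684, 615 and 495 in Itgb7 KO and 691, 768 and 520 in WT, higher in each library. Its log2 fold change was -0.76, as was that of Rgs2, an inhibitor of G protein signalling. Thbs1 (-0.74), the flow-responsive factor Klf2 (-0.75), the receptor subunit gene Ramp1 (-0.72) and the stress-induced genes Nupr1 (-0.71) and Ddit3 (-0.65) were also lower. DESeq2 did not call Ccl6, Reg4, Rgs2 or Nupr1, and Reg4 stood at 0.05 against goblet cells without Atoh1. Ddit3 encodes CHOP, a factor of the ER stress response, and averaged 54.3 CPM in Atoh1+Dll1+ cells and 81.7 in goblet cells (edgeR adjusted p = 6.61e-06). Of 29 ER folding genes, 10 were lower and none higher, and 1 was lower in cells of at least 2%. Of 16 O-glycosylation genes, 3 were lower, and none in cells of at least 2%.

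When cells under 2% goblet RNA were left out, calls against goblet cells fell from 12.2 to 2.81% of all genes. Calls of stem cell, niche ligand, interferon-stimulated and MHC class II genes fell as well. With all cells, 5.68% of all genes were higher and 6.56% lower. Of 20 stem cell and Wnt target genes, Cdca7, Axin2 and Smoc2 were higher and none lower. Axin2, a Wnt feedback gene, had a log2 fold change of 0.49, but of -0.03 in the cells of at least 2%; Smoc2 had 0.53. Of 5 tested ligands of the stem cell niche, the epidermal growth factor relatives Areg and Hbegf were lower; neither was called in cells of at least 2%, and Areg kept its call only without WT replicate 1 when libraries were left out. None of 14 enteroendocrine genes was called. Of 21 interferon-stimulated genes, 9 (against 6.56% of all genes) were lower and 1, Ifitm3, was higher; in cells of at least 2%, 1 of 20 was lower and none higher. Of 6 MHC class II genes 1 was higher.

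Against Neurog3 cells, the Atoh1+Dll1+ cells had far more RNA of goblet products and far less of enteroendocrine genes, with 4077 of 10021 genes called by the same edgeR fit (40.7%; 20% higher and 20.6% lower). All 20 goblet products were higher, with a median log2 fold change of 3.36, among them Zg16 (4.62), Clca1 (3.80) and Muc2 (3.59). Of 29 ER folding genes, 27 were higher and 1 lower, and of 16 O-glycosylation genes 15 were higher. Of 14 enteroendocrine genes, 12 were lower, with a median of -6.24, and 1 higher. The enteroendocrine factor Neurod1 averaged 1.67 CPM in Atoh1+Dll1+ cells and 325 in Neurog3 cells (-7.12), and Insm1 3.27 and 845 (-7.83). Sox4 averaged 99.0 CPM in Atoh1+Dll1+ cells and 1830 in Neurog3 cells, a log2 fold change of -3.94. Both classes had Dll4, at 25.2 and 25.4 CPM (edgeR adjusted p = 0.393). Hes1 was higher by 0.86 ± 0.14, at 129 and 78.7 CPM, while Notch1 was lower by 1.23 and Lfng by 0.83. The cell cycle inhibitor Cdkn1c averaged 6.71 CPM in Atoh1+Dll1+ cells and 255 in Neurog3 cells (-4.86), and Cdkn1a 235 and 669 (-1.23). Of the 5 tested niche ligands, 4 were higher, among them Areg at 116 and 16.7 CPM, and Wnt3 was lower. Neurog3 cells were shallower, with a median of 8048 UMIs; absence of Neurog3 chose the Atoh1+Dll1+ cells.

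Against Lgr5 cells, 6465 of 10020 genes were called (64.5%; 30.7% higher and 33.9% lower). All 19 tested stem cell genes were lower in Atoh1+Dll1+ cells, with a median of -1.71. The stem cell factor Ascl2 averaged 11.3 CPM in Atoh1+Dll1+ cells and 139 in Lgr5 cells, a log2 fold change of -3.28. All 4 tested Notch targets were lower: Hes1 (-1.12, at 129 and 335 CPM), Nrarp (-1.65), Olfm4 (-0.93) and Dtx4 (-1.69). Both tested receptors were lower, Notch1 at 5.69 and 33.0 CPM (-2.22) and Notch2 (-2.56), whereas the ligand Dll4 was higher by 3.57 ± 0.22, at 25.2 and 2.19 CPM. Spdef was higher by 5.71, Creb3l1 by 4.94 and Gfi1 by 6.11. All 6 MHC class II genes were lower, Cd74 by a log2 fold change of -1.91. All 29 G2/M genes and 28 of 30 S-phase genes were lower, and all 29 ER folding genes were higher.

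**Figure D3:**
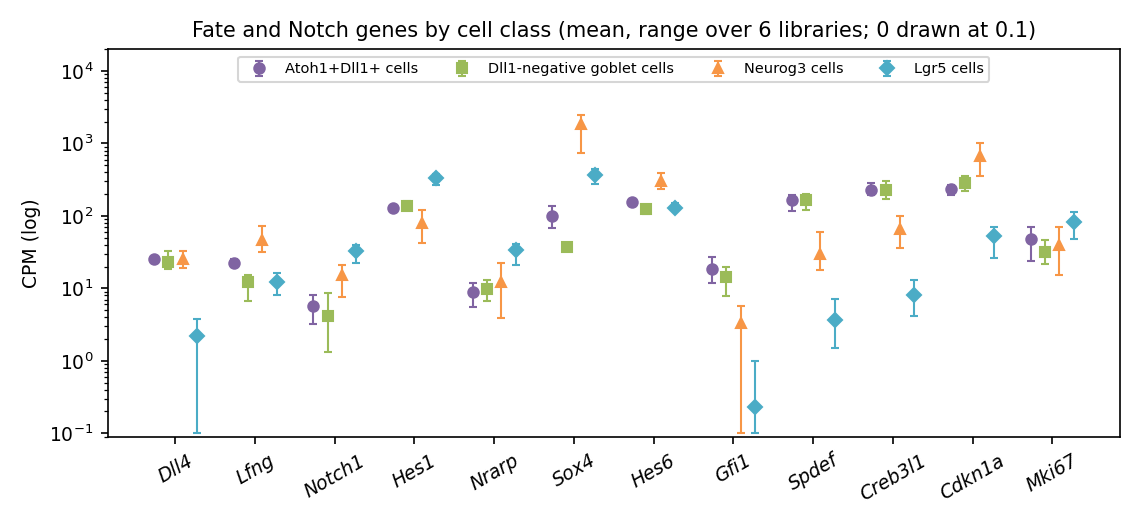
Levels of 12 Notch, fate and cell cycle genes (CPM, log axis) in Atoh1+Dll1+ cells, Dll1-negative goblet cells, Neurog3 cells and Lgr5 cells. Points are means and bars the lowest and highest of 6 libraries, with a value of 0 drawn at 0.1; Dll4 averages 25.2, 23.3 and 25.4 CPM in the first 3 classes and 2.19 in Lgr5 cells, and Sox4 is highest in Neurog3 cells at 1830 CPM.

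ER folding genes took 1.13 ± 0.0580% of UMIs in Atoh1+Dll1+ cells (SD, n = 6), 1.15% in goblet cells, 0.559% in Neurog3 cells and 0.381% in Lgr5 cells. Hspa5 averaged 890 CPM in Atoh1+Dll1+ cells, 936 in goblet cells, 384 in Neurog3 cells and 276 in Lgr5 cells. Creld2, another ER protein gene, averaged 212 CPM in Atoh1+Dll1+ cells, 200 in goblet cells, 73.9 in Neurog3 cells and 44.8 in Lgr5 cells. The promoters of both are shown because they carry the ER stress response element CCAAT, any 9 bases and CCACG, searched on both strands; it contains the CCAAT box. The element was present in 7 of 22 ER folding promoters found (31.8%), against 39 of all 32851 (0.119%) and none of the G2/M, S-phase, secretory factor or goblet product promoters. Hspa5 is at chr2:34771840-34772139 and Creld2 at chr15:88819396-88819695, both on the plus strand. Capitals mark the element, which reads in reverse complement in Creld2.
Hspa5: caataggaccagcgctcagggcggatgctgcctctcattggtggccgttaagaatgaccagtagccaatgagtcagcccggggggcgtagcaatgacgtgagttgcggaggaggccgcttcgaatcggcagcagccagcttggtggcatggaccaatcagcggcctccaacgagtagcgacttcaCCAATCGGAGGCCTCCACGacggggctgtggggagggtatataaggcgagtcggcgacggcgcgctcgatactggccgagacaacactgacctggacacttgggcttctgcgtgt
Creld2: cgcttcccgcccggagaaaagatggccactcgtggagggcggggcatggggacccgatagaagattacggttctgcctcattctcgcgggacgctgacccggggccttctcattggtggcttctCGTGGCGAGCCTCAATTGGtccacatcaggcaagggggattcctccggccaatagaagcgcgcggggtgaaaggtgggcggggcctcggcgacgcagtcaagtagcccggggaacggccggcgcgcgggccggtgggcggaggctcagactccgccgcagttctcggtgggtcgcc
The other 5 genes with the element were Calr, Hsp90b1, Canx, Pdia6 and Dnajc3.

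The share of Atoh1+Dll1+ cells did not separate the genotypes. They made up 17.8, 7.47 and 7.21% of kept barcodes in the Itgb7 KO libraries, against 17.3, 10.6 and 10.04% in the WT libraries. The means were 10.8 ± 6.07% and 12.6 ± 4.08% (SD, n = 3 each; exact permutation test, two-sided, p = 0.6, where 0.1 is the smallest possible). Replicate 1 of each genotype stood highest, the difference reversed to 0.00582 percentage points without Itgb7 KO replicate 3, and it was 0.538 without WT replicate 1. With every barcode thinned to 5000 UMIs the expected shares were 4.42, 4.37 and 6.01% in Itgb7 KO, against 4.03, 4.86 and 4.11% in WT (means 4.94 ± 0.935% and 4.33 ± 0.457%, exact permutation p = 0.5). Thinning left out 0, 439 and 1119 barcodes of Itgb7 KO and 0, 111 and 257 of WT as too shallow, and at 8000 UMIs the difference was -0.200 percentage points. The deposited names carry serial numbers that place replicate 1 of both genotypes together, the other 2 Itgb7 KO libraries with WT replicate 2, and WT replicate 3 apart. Within the first pair the thinned share was 4.42% in Itgb7 KO and 4.03% in WT.

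**Figure D4:**
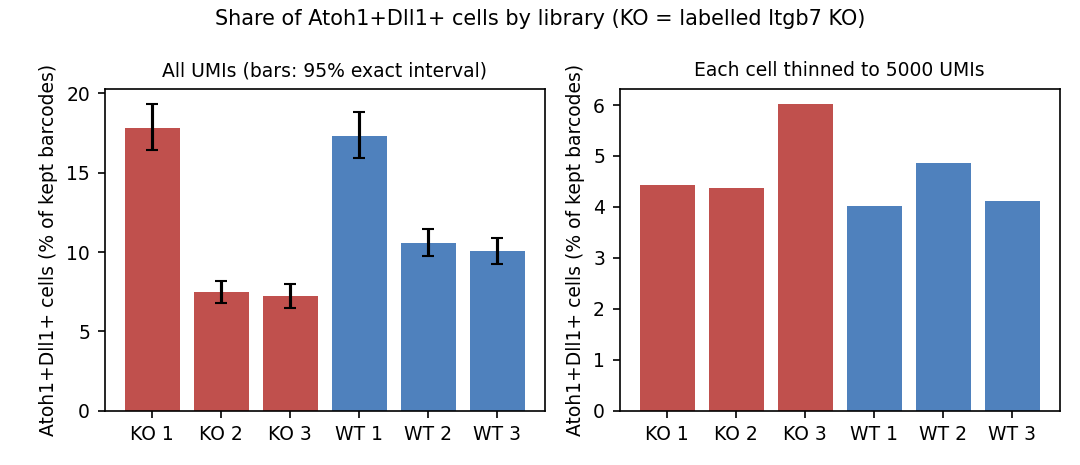
Atoh1+Dll1+ cells as percent of kept barcodes in each library, with all UMIs on the left (bars of error: 95% exact binomial interval) and expected after thinning each cell to 5000 UMIs on the right, Itgb7 KO in red and WT in blue. Replicate 1 of each genotype stands highest on the left, at 17.8 and 17.3%, and is no longer apart on the right, at 4.42 and 4.03%.

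The cells with the least goblet RNA were a larger part of the Atoh1+Dll1+ cells in every Itgb7 KO library than in any WT library. Cells under 2% were 13.3, 11.9 and 10.9% of the Atoh1+Dll1+ cells in the Itgb7 KO libraries, against 8.73, 8.44 and 8.53% in the WT libraries. The ranges did not overlap, with means of 12.04 ± 1.16% and 8.57 ± 0.149% (SD, n = 3 each), and the exact permutation p of 0.1 is the smallest that 3 against 3 can give. As counts, these cells overlapped, at 66, 51 and 36 in Itgb7 KO and 42, 45 and 44 in WT. Kept barcodes numbered 2791, 5731 and 4565 in Itgb7 KO and 2773, 5047 and 5138 in WT. The shares are of the cells that the rule found, and the part of depth in them was not tested. The next bin, 2 to 8%, held 23.7 ± 0.599% of the cells in Itgb7 KO and 27.1 ± 1.53% in WT, also without overlap (exact permutation p = 0.1). The bins from 8 to 16% and above did not separate (exact permutation p = 0.3 and 0.5). The 7 goblet products took 11.1 ± 0.248% of summed UMIs in Itgb7 KO and 10.9 ± 0.842% in WT (exact permutation p = 0.9). Cell cycle genes took 0.272 ± 0.0373% in Itgb7 KO and 0.251 ± 0.0244% in WT (exact permutation p = 0.6).

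Gene by gene, Agpat4 alone was called between genotypes in the Atoh1+Dll1+ cells, 1 of 10704 genes (0.00934%) by edgeR, with 250 at an unadjusted p under 0.05. Agpat4, an acyltransferase gene of phospholipid synthesis, stood at 3.88, 2.45 and 3.19 CPM in Itgb7 KO, against 20.1, 18.7 and 20.8 in WT. The groups were far apart, with a log2 fold change of -2.59 ± 0.23 (edgeR adjusted p = 0.0230). Its adjusted p was 0.0995 to 0.188 when WT replicate 1, 2 or 3 or Itgb7 KO replicate 2 or 3 was left out, with log2 values between -2.66 and -2.39, and 0.135 in the cells of at least 2% goblet RNA, with a log2 value of -2.50. DESeq2 called 12 of 10697 genes (0.112%), a replicate block 2 (0.0187%) and a block on the serial numbers 29 (0.271%), of which 27 were higher in Itgb7 KO (0.252%). Itgb7 itself gave 1, 0 and 0 UMIs in Itgb7 KO, against 1, 2 and 0 in WT, too few to test, and its partner Itgae 1, 0 and 0, against 1, 2 and 3. Since Itgb7 is a lymphocyte gene and the reads are 3′ tags, these counts do not check the genotype label.

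Interferon-stimulated and antigen presentation genes had higher levels in Itgb7 KO, and whether they passed the test depended on the fit. Ifi47, an interferon-induced GTPase gene, stood at 25.4, 23.9 and 31.0 CPM in Itgb7 KO, against 10.2, 7.47 and 11.2 in WT. Its log2 value was 1.43 ± 0.21 (edgeR adjusted p = 0.344), and the fit with the replicate block called it (1.45 ± 0.15, edgeR adjusted p = 0.0482). Isg15, a ubiquitin-like modifier, stood at 63.4, 37.0 and 38.7 CPM in Itgb7 KO, against 8.12, 8.19 and 22.4 in WT. Psmb8, an immunoproteasome subunit gene, stood at 187, 148 and 165 CPM in Itgb7 KO, against 99.5, 68.3 and 96.9 in WT. Isg15 and Psmb8 belong to the interferon-stimulated list, in which the lowest edgeR adjusted p was 0.881 without a block. Cd74 stood at 317, 295 and 279 CPM in Itgb7 KO, against 168, 19.6 and 90.0 in WT, with a log2 value of 1.63 ± 0.61 (edgeR adjusted p = 1). Cd74 was also highest in the cells under 2% goblet RNA, a larger part of the Atoh1+Dll1+ cells in Itgb7 KO. Its log2 value in the other cells alone is therefore given: 1.58. All 6 tested MHC class II genes had positive values, with a median of 1.37, as had 23 of 23 interferon-stimulated genes with a median of 1.02, against -0.00102 over all genes. Neither list, of which Ifi47 is not a member, had a called gene in the edgeR fit without a block or with the replicate block. With the serial number block, 14 of the 23 interferon-stimulated genes were called higher, among them Isg15, Oasl2, Ddx60, Ifit1, Irf7, Ifitm3 and Psmb8; WT replicate 3 is alone in its block there and so does not bear on the difference. DESeq2 called 4 of the 23, Isg15, Oasl2, Ddx60 and Ifit1, all higher. No MHC class II gene was called in these fits. MHC class II genes took 0.0513 ± 0.00653% of UMIs in Itgb7 KO and 0.0192 ± 0.0119% in WT, and interferon-stimulated genes 0.169 ± 0.0368% and 0.0890 ± 0.0189%. The difference was not limited to these cells (means below, Itgb7 KO first). The MHC class II shares were 0.03705 and 0.01768% in Dll1-negative goblet cells, 0.179 and 0.0639% in Lgr5 cells and 0.0499 and 0.0119% in enterocytes. The interferon-stimulated shares were 0.196 and 0.1004%, 0.165 and 0.0978%, and 0.193 and 0.1017% in the same order. In Neurog3 cells the MHC class II shares were 0.0615 and 0.0186%. Interferon-stimulated shares there, 0.0843 and 0.0578%, overlapped between genotypes.

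No tested gene of secretory fate was called between genotypes, where few genes of any kind were. Of all genes, edgeR called 0.00934%, the replicate block 0.0187%, the serial number block 0.271% and DESeq2 0.112%. Absence of a call therefore does not set the lists below apart from other genes. None of the 3 tested Notch ligands, 3 receptors, 16 processing genes or 4 targets was called, nor any of 17 secretory factors, whose median log2 value was 0.05, in the edgeR fit, with either block or by DESeq2. Spdef stood at 181, 157 and 118 CPM in Itgb7 KO, against 169, 192 and 192 in WT, and Creb3l1 at 220, 211 and 202, against 193, 271 and 286. Both overlapped between genotypes. The 20 goblet products had a median of -0.01, the 29 ER folding genes 0.07 and the 19 stem cell genes 0.13, with no call in any. Cdh1, the E-cadherin gene, had a log2 value of -0.16 ± 0.19, and Itgb1, the main epithelial integrin β chain, 0.02 ± 0.14.

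Whether the Itgb7 KO effect differed between Atoh1+Dll1+ cells and Dll1-negative goblet cells was tested as an interaction in 1 edgeR fit with library as a block, which called 4 of 10507 genes (0.0381%), with 489 at an unadjusted p under 0.05. All 4 were hormone or granule genes of enteroendocrine cells, Ghrl, Nts, Cck and Chgb, with a lower effect in Atoh1+Dll1+ cells. DESeq2 called 1 of them, Ghrl (0.00952%). Without Itgb7 KO replicate 1 the count was 30, without WT replicate 2 it was 7 and without WT replicate 3 it was 1. In goblet cells of the Itgb7 KO libraries, few barcodes held most UMIs of these genes: 1 barcode held 2388 of the 4184 Ghrl UMIs. No gene of the Notch, secretory factor or goblet product lists was called.

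**Figure D5:**
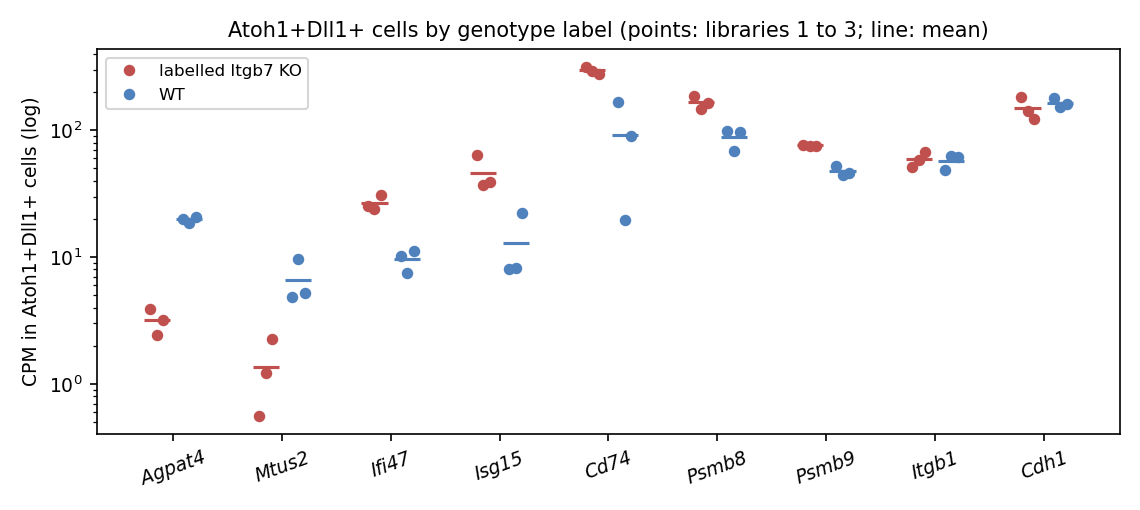
Levels of 9 genes in Atoh1+Dll1+ cells (CPM, log axis) in each Itgb7 KO library (red, left of each pair) and WT library (blue, right); lines mark the means of 3 libraries. Agpat4 lies at 2.45 to 3.88 CPM in Itgb7 KO and 18.7 to 20.8 in WT, and Itgb1 and Cdh1 overlap.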

How the data were processed

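UMI counts per gene and barcode were deposited by the authors for each of 6 libraries made with 10x 3′ version 2 chemistry. The submitters' processing notes name the tools Cell Ranger 2.1.1, bcl2fastq 2.17.1.14 and Seurat and the build mm10, without saying which made the counts. Selected cells, and the classes set beside them, were summed per library, giving 2194341 to 11823378 UMIs per library for the Atoh1+Dll1+ cells, and CPM was taken over all UMIs.

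The members, gene lists and tests were chosen with earlier results of these data known. Of 25 lists with 357 genes, 356 were in the files; 27645 of 27998 gene IDs matched the GENCODE annotation used for coordinates. Goblet cells were Dll1-negative barcodes with at least 2% of UMIs from 7 goblet genes. Lgr5 cells that met the goblet rule were left out of the Lgr5 class, a limit added to keep the classes apart. Enterocytes, the class for background, had at least 1% of UMIs from enterocyte genes and under 0.5% from the 7, the first limit set after values were seen.

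Sums were tested with edgeR 4.0.16 in R 4.3.3 (TMM, filterByExpr, quasi-likelihood, Benjamini-Hochberg adjusted p of 0.05) and with DESeq2 1.42.0 as an alternative, after tests on simulated data. Genes that chose a class were not tested in it, with an exception. The 7 goblet genes were tested against Lgr5 cells, although the goblet rule had left 2 cells out of that class. Shares were tested over libraries by exact permutation (scipy 1.17.1). Genes were named from the lists and, beyond them, as the called genes with the largest change and at least 50 CPM, up to 10 each way; values for a few others were chosen after they were seen. Scrublet's automatic limit marked under 0.5% of barcodes in 5 of 6 libraries, so doublets were kept and the highest-scoring 0.8% per 1000 barcodes were left out as an alternative. Libraries with the same number in both genotypes deviated together (r = 0.552, 0.161 and 0.168 over 10728 genes), although Itgb7 KO replicate 3 correlated more with WT replicate 2 (0.373) and the labels do not say what a number marks. Intervals cover counting error only.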

Additional observations from a re-analysis of the deposited data

Results flagged for a closer look

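The Itgb7 KO effect on 4 genes was lower in Atoh1+Dll1+ cells than in Dll1-negative goblet cells by a test of the difference itself (edgeR interaction, library as block). Ghrl, the gene of the hormone ghrelin, differed by -4.20 ± 0.33 on the log2 scale (edgeR adjusted p = 4.21e-09). It gave 232, 148 and 45 UMIs in Atoh1+Dll1+ cells of the Itgb7 KO libraries, against 177, 41 and 138 in those of WT, and 2479, 637 and 1068 in goblet cells of Itgb7 KO, against 110, 17 and 74 in those of WT. Of the 4184 Ghrl UMIs in goblet cells of Itgb7 KO, 5 barcodes held 3999. Nts, the neurotensin gene, differed by -5.08 ± 0.79 (edgeR adjusted p = 0.00217), with 409 of its 447 UMIs in goblet cells of Itgb7 KO in 1 barcode; without Itgb7 KO replicate 2 the difference was -1.05. Cck, the cholecystokinin gene, differed by -3.59 ± 0.56 (edgeR adjusted p = 0.00217), with 1632 of 1798 UMIs in 5 barcodes. Chgb, a granule protein gene, differed by -1.35 ± 0.24 (edgeR adjusted p = 0.0122), with 258 of 434 UMIs in 1 barcode. In Atoh1+Dll1+ cells, 5 barcodes held 835 of 1149 Cck UMIs in Itgb7 KO and 1278 of 1624 in WT. For Chgb, 5 barcodes there held 384 of 662 and 229 of 542. Ghrl and Nts were less concentrated there, with 29 of 425 and 60 of 356 for Ghrl and 6 of 20 and 14 of 56 for Nts. DESeq2 called Ghrl of these 4. Without WT replicate 3, Nts, Cck and Chgb lost the call (edgeR adjusted p = 0.0548, 0.292 and 0.292), as did Cck without WT replicate 1 (0.0651) and Chgb without Itgb7 KO replicate 1 (0.276).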

How the results depend on the processing

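The share of Atoh1+Dll1+ cells differed by -1.81 percentage points between Itgb7 KO and WT, and by -5.31 to 0.538 when each library was left out (0.00582 without Itgb7 KO replicate 3); with thinning to 5000 UMIs the difference was 0.604 (leave-one-out 0.0645 to 0.886), and -0.200 at 8000 UMIs. The cell cycle share exceeded that of goblet cells by 0.0968 to 0.109 percentage points without each library in turn, where the exact p of 0.0625 is the smallest that 5 libraries allow. Between genotypes its difference ran from -0.000679 to 0.0334, and that of goblet products from -0.255 to 0.581, or -0.635 with at least 2 UMIs each of Atoh1 and Dll1. Genes called against goblet cells numbered 2081 with a goblet limit of 4%, 628 with goblet cells without Atoh1, 278 in cells of at least 2%, and 700 to 1208 without each library. Genes called between genotypes numbered 12 with DESeq2, 3 without a filter on low counts, 29 with the serial number block, 0 with at least 2 UMIs of each gene, 0 in cells of at least 2% (264 at an unadjusted p under 0.05), and 0 to 1 without each library. The interaction gave 1 call with DESeq2 and 1 to 30 without each library. Signs turned for uncalled or lost values against goblet cells: Reg4 0.0512 (goblet cells without Atoh1), Axin2 -0.0269 (cells of at least 2%), Dll4 -0.0226 (limit of 4%) and -0.00748 (without WT replicate 1; leave-one-out up to 0.124), Spdef 0.00566 (2 UMIs of each), 0.00130 (limit of 1%), 0.0391 (without Atoh1) and 0.107 (at least 2%), and Creb3l1 0.0530, 0.00781, 0.0793 and 0.113 in the same order. Between genotypes Itgb1 turned to -0.0357 without the highest doublet scores, -0.0369 in cells of at least 2%, -0.0552 without WT replicate 1 and -0.0861 without Itgb7 KO replicate 3 (leave-one-out up to 0.0836). The cause was not tested. With the 2 Lgr5 cells that met the goblet rule put back, 6463 genes were called against Lgr5 cells, against 6465. That alternative and those of cells at 2% goblet RNA and goblet cells without Atoh1 were chosen after seeing the data.

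With the replicate number as a block, 2 genes were called between genotypes, Agpat4 and Ifi47, and the share differences were -1.81 (exact p = 0.5) and, thinned, 0.604 (exact p = 0.75); the block changed no other call. Depth limits what the cell rule finds: the shallowest library had a median of 6237 UMIs per selected cell, so cells with little Atoh1 or Dll1 RNA there could go unseen.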

Other observations

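Between Atoh1+Dll1+ cells and Dll1-negative goblet cells, 5.68% of all genes were called higher and 6.56% lower. The counts of further lists are given beside those shares. Of 12 genes of absorptive fate none was called, of 9 enterocyte genes 1 was lower, of 15 integrin and adhesion genes 2 were lower, and of 7 Hippo pathway genes 1 was higher and 1 lower. Of 6 tested Paneth genes, 2 were lower. Against Lgr5 cells, where 30.7% of all genes were called higher and 33.9% lower, 7 of the 9 enterocyte genes were higher in Atoh1+Dll1+ cells and 1 lower; in cells of at least 2% goblet RNA 1 was higher and 1 lower. Of 15 integrin and adhesion genes 6 were higher and 2 lower, and 7 and 2 in cells of at least 2%, a share near that of all genes (64.5%). Between genotypes no gene of these lists was called by edgeR, with or without a block, or by DESeq2 in the Atoh1+Dll1+ cells. Those fits called 0.00934 to 0.271% of all genes.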
